A study of Taeniopygia guttata with 21 samples.

Results

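Solute carriers (SLC) are membrane proteins that move amino acids, sugars, ions, metals, vitamins and nucleotides into cells or between their compartments. They are grouped into numbered families by sequence, and each member has its own substrates. In embryonic skin, carriers of the epidermis, the dermis, pigment cells and nerve fibres are measured together. Roles of single carriers are known mainly from mammals and are stated as background. The members described here are the genes of the deposited table whose symbol starts with SLC followed by a family number, a letter and a member number, with a mean of at least 10 normalised read counts over all libraries. The genes SLC45A2, SLC24A5 and SLC18A2 were set aside by name. This gave 171 members among 18202 genes. Of 212 matching entries, 38 had a lower mean. All 171 members passed the filter on low values that was applied before testing.

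The libraries came from skin of wild-type zebra finch (Taeniopygia guttata) embryos at stage HH28, sampled at 7 locations that the study treats as presumptive colour domains. The 9 dorsal libraries cover 3 locations (dorsal anterior, dorsal saddle, dorsal posterior) and the 12 ventral libraries cover 4 (ventral anterior, ventral-most, flank, ventral posterior). Each location has 3 libraries, numbered 3, 8 and 11. All groups shared genotype and stage, and sex was not given. The labels do not say what a replicate number marks or whether a library pools embryos, so p-values measure the spread between these libraries.

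Libraries held 12900000 to 23000000 reads, recovered from the normalised values, with a median of 20700000 dorsally and 17600000 ventrally. Members together took between 0.841% and 0.996% of a library's values. Genes of dermal mesenchyme (summed level 168300 to 306500 normalised read counts) and of epidermis (9032 to 42140) were read in every library, as the tissue label implies. So were red blood cell genes, with a sum of 6146 to 57230. The pieces therefore hold several cell types, and fewer cells of a type cannot be told apart from less RNA per cell.

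Of the 171 members, 169 are carriers by symbol. The others are SLC7A6OS, which only shares a name with its neighbour SLC7A6, and NHERF2 (older symbol SLC9A3R2), a scaffold that tethers carriers. For 5 members the RefSeq symbol and the deposited name differ. The entry named SLC22A15 is among these. It is counted with the 169 carriers but is not described singly. Members lay on 32 chromosomes or unplaced groups of the table, and their mean levels ran from 12.15 to 37070 normalised read counts with a median of 410.1. The 2 members with the highest mean were the mitochondrial ADP/ATP carrier SLC25A6, between 32190 and 42530 in every library, and the mitochondrial phosphate carrier SLC25A3, between 8144 and 14040. Levels are not corrected for gene length. Just inside the limit of 10 were SLC12A1 at 12.15 and SLC13A2 at 12.67, and just outside were SLC46A2 at 9.886 and SLC18A3 at 9.815. The genomic spans of 13 members overlap another gene of the table, 6 of them on the same strand, and the sources used here do not say whether counting used strand. SLC1A1, SLC4A4, SLC8A1 and SLC1A7 are among these.

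Dorsal against ventral skin gave more called members than any other contrast between locations. It also sets the most libraries against each other, 9 against 12, so counts are not comparable between contrasts as sizes of change. The median size of the members' log2 change was 0.28 for it and 0.25 for each anterior-posterior contrast. For the difference of those contrasts it was 0.30, and for single locations 0.15 to 0.25. To be called, a gene needed an adjusted p (Benjamini-Hochberg, over all genes tested) under 0.05 in limma, which fits a linear model to log2(value + 1). For any difference among the 7 locations 34 members were called, against 15.4% of all 14005 genes tested. This number rose to 77 with the replicate number as a block in the fit, where the background was 30.0%. Dorsal against ventral skin gave 37 members, or 21.6% of them, against a background of 17.2%. With the block it gave 62 members against 29.2%. Anterior-posterior contrasts and single locations called between 0 and 10 members each. The share of members called in each comparison is plotted beside that of all genes.

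**Figure D1:**
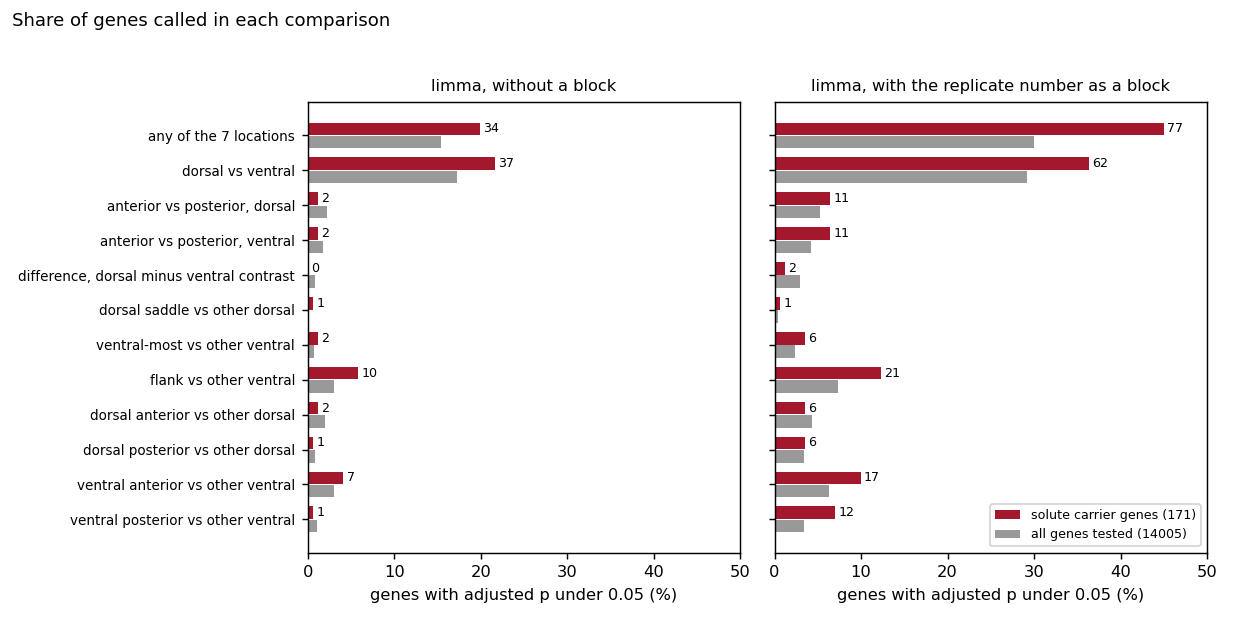
Percentage of genes with adjusted p under 0.05 in each of the 12 comparisons, for the 171 solute carrier genes (red, with the number called) and all 14005 genes tested (grey), without and with the replicate number as a block. Any difference among the 7 locations called 34 members without the block and 77 with it. Among the other comparisons dorsal against ventral skin called the most, with 37 members without the block and 62 with it. It also sets the most libraries against each other.

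Between the back and the belly most members of every role were not called. Those called higher dorsally included carriers of glutamate, serotonin, zinc and vitamin C, and those called lower included a calcium exchanger, a citrate carrier and an anion exchanger. In all, 25 members were higher dorsally, against a background of 9.31%, and 12 were lower, against 7.89%. The median member was higher by 0.06 on the log2 scale, while the median of all genes was 0.00. With the block 42 members were higher (background 15.3%) and 20 lower (13.9%). The same backgrounds apply to the counts by role and by list between the sides. Leaving out replicate number 8 left 8 members called, and 813 of all 14005 genes, against 2409 genes in the full fit. Leaving out number 3 or number 11 left 27 members each, and 1525 and 1709 of all genes. When single libraries were left out in turn, 26 of the 37 stayed called each time. The 7 that also stayed called without each replicate number were SLC1A1, SLC6A4, SLC1A3, SLC16A7, SLC22A23, SLC30A1 and SLC24A2. Matching numbers over all genes are not given, so the 26 and the 7 are not read as particular to the members.

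**Figure D2:**
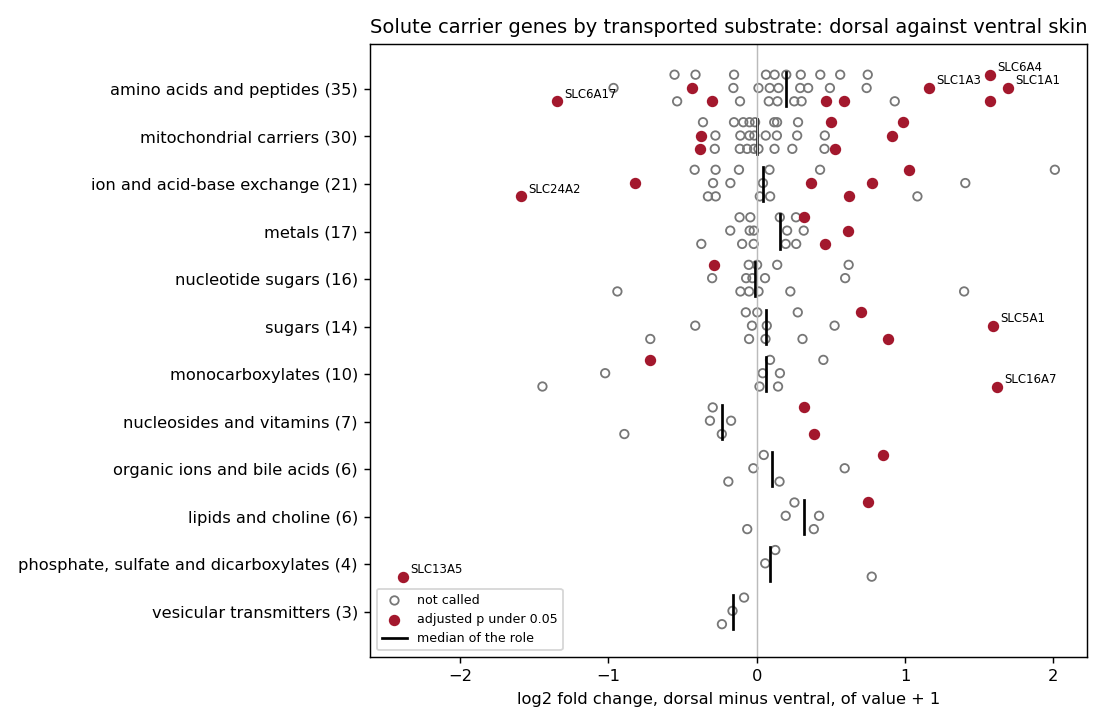
Log2 fold change of dorsal minus ventral skin for the 169 carriers, one point per gene, in rows by transported substrate with the number of members. Filled points have adjusted p under 0.05, open points do not, and the black bar is the row's median. Called members lie on both sides of 0 in several rows, from SLC13A5 at -2.38 to SLC1A1 at 1.69.

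Cell type markers moved along the same axis. Of 11 epidermis genes 7 were higher dorsally and none lower, and their summed level ran from 20840 to 42140 in dorsal and from 9032 to 20750 in ventral libraries. Of 12 melanocyte genes 10 were higher, and their sum ran from 3817 to 11930 dorsally and from 520.2 to 3590 ventrally. Of 10 endothelium genes 5 were lower dorsally. Of 13 dermal mesenchyme genes 2 were higher and 4 lower. Calls were 3 higher and 2 lower among 8 cartilage genes, and 2 higher among 5 liver genes. Of 4 mesothelium and kidney genes 2 were higher and 1 lower. Nerve, glia and muscle lists had at most 1 call in each direction. The part of these cells in the carriers' differences was not tested.

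Carriers of amino acids and of amine transmitters form the largest group of members. Of 35, 6 were called higher dorsally and 3 lower (8 and 5 with the block). SLC1A1 takes up glutamate, aspartate and cysteine with sodium. It lies on chromosome Z, from 64187887 to 64227155, where an opposite-strand gene with a mean of 0.977 overlaps it by 189 bases. SLC1A1 read between 107.4 and 207.5 normalised read counts in the 9 dorsal libraries, with a median of 145.6, and between 30.73 and 85.74 in the 12 ventral ones, with a median of 45.54. Every dorsal library lay above every ventral one, and the difference was 1.69 on the log2 scale (SE 0.18, limma adjusted p = 6.38e-06).

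SLC6A4 is the plasma membrane serotonin transporter, which clears serotonin from around a cell. It lies on chromosome 19, from 7653607 to 7664381. SLC6A4 read 310.9 to 541.6 dorsally, with a median of 370.4, and 53.56 to 210.2 ventrally, with a median of 135.1. The groups again did not overlap, and the difference was 1.57 (SE 0.17, limma adjusted p = 9.12e-06). Of all genes 0.593% were higher in every dorsal than in every ventral library, and SLC1A1 and SLC6A4 were the 2 members among them.

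SLC1A3, a glutamate transporter best known from glia, was also higher dorsally. It read 168.9 to 533.8 with a median of 243.1, against 30.11 to 191.9 with a median of 135.1, so that the groups overlapped, and the difference was 1.17 (SE 0.21, limma adjusted p = 0.000684). Its highest location was dorsal posterior, with libraries at 399.2, 533.8 and 243.1, and its lowest was ventral posterior, with 73.19, 30.11 and 109.7. SLC66A2 (PQLC1 in the deposited table) was higher by 0.47 and SLC7A10, a carrier of small neutral amino acids, by 0.59. The SLC7A10 call was lost on leaving out any of dorsal anterior 3, dorsal posterior 11 or dorsal saddle 8, with adjusted p up to 0.0609.

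The amino acid carriers called lower dorsally were SLC6A17, SLC7A6 and SLC7A1. SLC6A17, which loads neutral amino acids into vesicles in nerve cells, read 28.02 to 129.9 dorsally and 41.79 to 373.8 ventrally, with medians of 60.96 and 190.9. Its difference was -1.34 (SE 0.28, limma adjusted p = 0.00244). The ventral side was not uniform, with flank at 41.79, 76.6 and 105.6 and ventral anterior at 283.1, 205.1 and 373.8. SLC7A6 and SLC7A1, exchangers and importers of basic amino acids, differed by -0.43 and -0.30. Leaving out 14 of the 21 libraries one at a time lost the SLC7A1 call, with adjusted p up to 0.0975. The neutral amino acid exchanger SLC7A5 and the cystine importer SLC7A11 were not called, at 0.08 (SE 0.45) and 0.74 (SE 1.22). Both varied by replicate number.

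**Figure D3:**
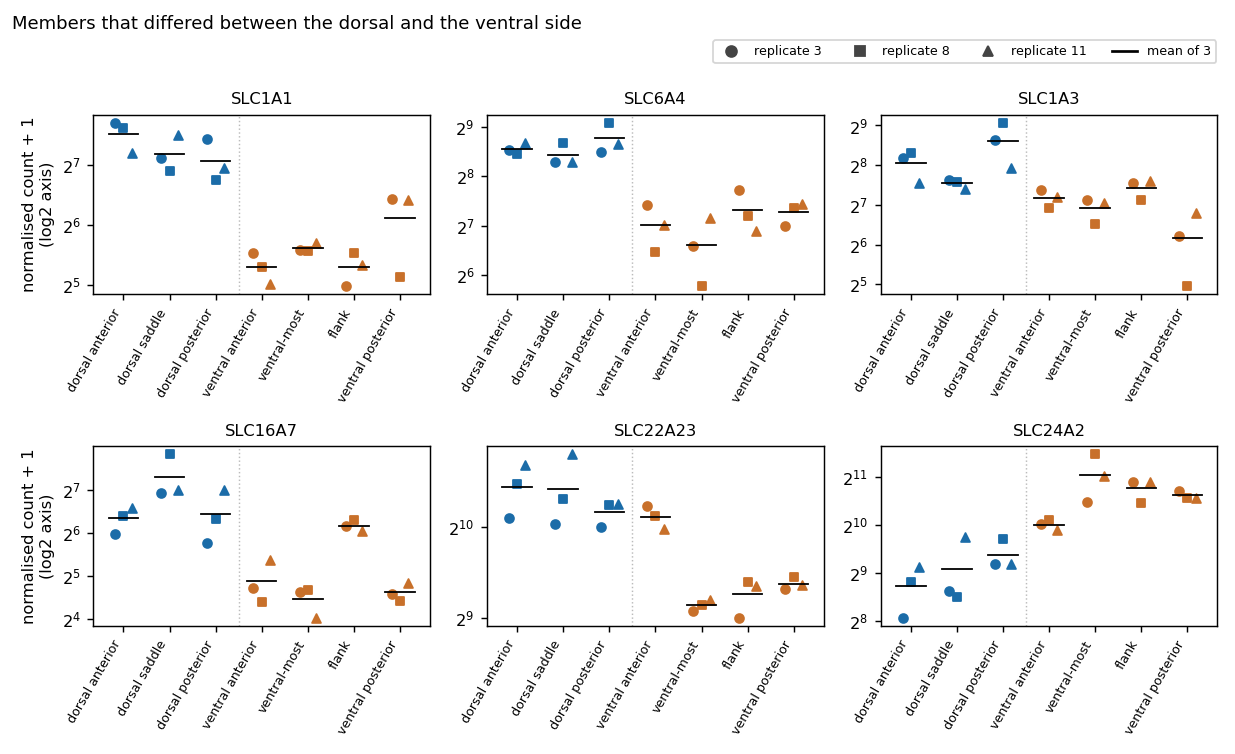
Normalised read counts plus 1 on a log2 axis for 6 members in every library, by location, with dorsal locations in blue, ventral in orange, the symbol giving the replicate number and the bar the mean of 3. SLC1A1 and SLC6A4 are higher in every dorsal than in every ventral library and SLC24A2 is lower, while SLC16A7 in flank (64.98 to 77.6) and SLC22A23 in ventral anterior skin (1011 to 1202) reach dorsal levels.

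Ion and acid-base exchangers went both ways, with 4 of 21 called higher and 2 lower, and 8 higher with the block. SLC24A2 exchanges sodium for calcium and potassium across the plasma membrane, and is known from neurons. It lies on chromosome Z, from 58068439 to 58173402. SLC24A2 read 268.8 to 862.7 dorsally, with a median of 560.3, and 955.8 to 2822 ventrally, with a median of 1511. Every dorsal library was below every ventral one, which held for 0.286% of all genes, and the difference was -1.59 (SE 0.17, limma adjusted p = 6.14e-06). Ventral-most skin held the highest values, at 1426, 2822 and 2057, and dorsal anterior skin the lowest, at 268.8, 446.9 and 560.3.

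SLC4A3, a chloride-bicarbonate exchanger, was lower in dorsal skin, with a difference of -0.82 (SE 0.17, limma adjusted p = 0.00291). Higher dorsally were the sodium-proton exchanger SLC9A5 by 1.03, the sodium-calcium exchanger SLC8A1 by 0.78, the sulfate transporter SLC26A2 by 0.62, which cartilage needs to sulfate its matrix, and the potassium-chloride cotransporter SLC12A4 by 0.37. SLC26A2 read 188.9 to 338.4 dorsally and 107.1 to 314.8 ventrally. The sodium-potassium-chloride cotransporter SLC12A2 narrowly missed the threshold at 0.43 (SE 0.15, limma adjusted p = 0.0513) and was called with the block (adjusted p = 0.00783). SLC26A4, an anion exchanger named here after its values were seen, had the largest fold change of the group at 2.01 without being called. A single library, dorsal saddle 8, held 727.1 of it and no other exceeded 81.43.

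Metal carriers called between the sides were all higher dorsally, 3 of 17 (background 9.31%), and 5 with the block (15.3%). SLC30A1, which exports zinc from cells, read 515.5 to 986 dorsally and 335.4 to 561.9 ventrally, with medians of 692 and 476.5. The difference was 0.62 (SE 0.10, limma adjusted p = 0.000248). The zinc importer SLC39A6 differed by 0.32 (SE 0.07), and the magnesium carrier SLC41A2 by 0.46 (SE 0.13). SLC39A6 was read at 2267 to 3623 in every library.

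Carriers of sugars and monocarboxylates included both called and uncalled genes. The widespread glucose importers SLC2A1 and SLC2A3 were not called between the sides, with log2 differences of -0.07 (SE 0.11) and 0.00 (SE 0.15). SLC16A1, a lactate and pyruvate carrier, stood at 0.09 (SE 0.09). SLC16A7, its relative with high affinity for pyruvate, was higher dorsally by 1.62 (SE 0.20, limma adjusted p = 2.31e-05). It read 53.11 to 223.5 in dorsal libraries, with a median of 94.8, and 15.48 to 77.6 in ventral ones, with a median of 24.9. The upper end of the ventral range was flank. SLC16A6, of the same family, was lower, with a difference of -0.72 (SE 0.22, limma adjusted p = 0.028). That call was lost on leaving out any of 5 libraries, with adjusted p up to 0.0652. The lactate exporter SLC16A3 missed the threshold at -1.02 (SE 0.35, limma adjusted p = 0.0514), and was called with the block (adjusted p = 0.0146).

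Among the 14 members of the sugar families 3 were called higher dorsally. The myo-inositol carrier SLC2A13 was higher by 0.70 (SE 0.15) and the fructose transporter SLC2A5 by 0.88 (SE 0.26). SLC5A1, which takes up glucose with sodium in the gut, differed by 1.60 (SE 0.51, limma adjusted p = 0.0379) at a dorsal median of only 22.73. That call was lost on leaving out any of 15 libraries, with adjusted p up to 0.087. The SLC2A5 call was lost on leaving out any of 4 dorsal libraries, with adjusted p up to 0.0586, and its single highest value, 489.4, was in flank library 11.

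Of 30 mitochondrial carriers 4 were called higher dorsally (7 with the block) and 2 lower, at a median of 0.00 for the group. SLC25A29, which carries basic amino acids, read 97.45 to 272.8 dorsally and 49.93 to 148.2 ventrally and was higher by 0.99 (SE 0.20, limma adjusted p = 0.00222). The citrate carrier SLC25A1 was higher by 0.53 (SE 0.11) and the ADP/ATP carrier SLC25A4 by 0.50 (SE 0.14). The abundant ADP/ATP carriers SLC25A6 and SLC25A5, which are close in sequence to SLC25A4, stood at -0.02 and -0.11, and reads shared between them could be split differently. SLC25A48 was higher by 0.91 (SE 0.26, limma adjusted p = 0.0224), and leaving out dorsal anterior 11 lost that call (log2 0.78, adjusted p = 0.0511). The oxoglutarate carrier SLC25A11 and the iron carrier SLC25A28 were lower, both at -0.38. The SLC25A28 call was lost on leaving out any of 13 libraries.

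The smaller groups held some of the clearest single differences. SLC22A23, an organic ion carrier without an agreed substrate, read 1022 to 1782 dorsally and 512.6 to 1202 ventrally, with medians of 1219 and 655.1. It was higher by 0.85 (SE 0.10, limma adjusted p = 1.46e-05), and its 3 highest ventral values were those of ventral anterior skin, at 1202, 1115 and 1011. SLC13A5, a citrate importer of liver and neurons, was lower dorsally, with a difference of -2.38 (SE 0.52, limma adjusted p = 0.00336). It was scarce throughout, with a dorsal median of 5.449 and a ventral median of 44.8. The vitamin C carrier SLC23A2 was higher by 0.38 (SE 0.08) and the thiamine carrier SLC19A2 by 0.32 (SE 0.10). The SLC19A2 call was lost on leaving out any of 9 libraries, with adjusted p up to 0.0832. The choline-transporter-like SLC44A5 was higher by 0.75 (SE 0.19), and with the block 4 of 6 lipid and choline carriers were higher (background 15.3%).

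Of the 16 nucleotide sugar carriers of the Golgi, SLC35C2 was called (2 higher and 3 lower with the block), at -0.29 (SE 0.09, limma adjusted p = 0.0278), and leaving out any of 5 libraries lost that call, with adjusted p up to 0.072. SLC35D1, needed for proteoglycan synthesis in cartilage, stood at -0.11 (SE 0.16). None of the 3 vesicular transmitter carriers was called by limma, edgeR or DESeq2, and 0 had an unadjusted p under 0.05. The glutamate carrier SLC17A6 was at -0.16 (SE 0.84), with a library median of 10.58 dorsally and 7.502 ventrally. Neither gene outside the carrier families had a large difference, with SLC7A6OS at -0.21 and NHERF2 at -0.53. Leaving out either of 2 libraries lost the SLC7A6OS call and any of 16 that of NHERF2, with adjusted p up to 0.06 and 0.112.

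Other transport genes, taken as lists beside the members, also changed in both directions. Of 21 ion-pumping ATPase subunits 6 were higher dorsally (background 9.31%) and none lower, and 11 were higher with the block (15.3%). These included the calcium pumps ATP2B2 at 1.20 (SE 0.21) and ATP2B1 at 0.72 (SE 0.11) and the sodium pump subunit ATP1B1 at 0.74 (SE 0.14). Of 21 ATP-binding cassette transporters 2 were higher and 3 lower, the latter being ABCC3 at -1.59, ABCC6 at -1.47 and ABCB10 at -1.07. The water channels AQP1 and AQP11 were higher, at 1.13 and 1.06, of 4 aquaporins tested. Of 4 organic anion carriers of the SLCO family, SLCO3A1 was lower at -0.68.

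Among 8 proteins that partner carriers, OSTM1, the partner of a lysosomal chloride exchanger, was higher at 1.09 and NHERF2 lower. LLGL2, placed in that list but known as an epithelial polarity protein, was higher at 1.01 (SE 0.07), beside the epidermis genes that rose. Of 16 genes of the amino acid response 0 were called by limma, edgeR or DESeq2, and 0 had an unadjusted p under 0.05, while the block called 1 higher.

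Along the anterior-posterior axis few members were called, at shares near the background. Dorsal anterior against dorsal posterior skin gave 2 (background 2.27%, with the block 11 and 5.28%). SLC35E1, an orphan of the nucleotide sugar family, read 542, 553.6 and 636.5 in dorsal anterior and 1217, 912.4 and 1023 in dorsal posterior skin, without overlap, at -0.86 (SE 0.20, limma adjusted p = 0.0288). SLC18B1, a vesicular polyamine carrier, was higher anteriorly by 0.63 (SE 0.16, adjusted p = 0.047). Leaving out any of 4 libraries lost the SLC35E1 call, with adjusted p up to 0.152, and any of 15 lost that of SLC18B1, with adjusted p up to 0.22.

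Ventral anterior against ventral posterior skin also gave 2 members (background 1.76%, with the block 11 and 4.21%), SLC6A2 and SLC37A1. SLC37A1, a sugar phosphate exchanger of the endoplasmic reticulum, read 124.5, 139.8 and 99.18 in ventral anterior and 24.05, 64.33 and 49.23 in ventral posterior skin, with a difference of 1.48 (SE 0.36, limma adjusted p = 0.0416). That call was lost on leaving out any of 14 libraries, with adjusted p up to 0.203. The difference between the dorsal and ventral contrasts was called for 0 members by limma (background 0.828%), while 21 had an unadjusted p under 0.05. It was called for 2 members with the block (2.93%), for 0 by edgeR (0.707%) and for 3 by DESeq2 on recovered reads (2.71%).

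SLC6A2, the noradrenaline transporter, was high at 1 dorsal and 1 ventral location and low elsewhere. It lies on chromosome 11, from 7333559 to 7390283. In dorsal saddle skin it read 348, 152.8 and 146.2 normalised read counts, and in dorsal anterior skin 17.51, 2.645 and 19.47. Dorsal posterior libraries held 16.6, 10.97 and 4.38. In ventral anterior skin it read 50.6, 261.2 and 414.1, and the other 9 ventral libraries held between 3.137 and 27.23. All 6 saddle and ventral anterior libraries were therefore above the other 15.

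Saddle against the other dorsal locations gave SLC6A2 as its one called member (background 0.143%, with the block again 1 and 0.407%), at 4.21 (SE 0.72, limma adjusted p = 0.0289). That call was lost on leaving out any of 7 dorsal libraries, with log2 values of 3.80 to 4.43 and adjusted p up to 0.208. Against the other ventral locations, ventral anterior skin was higher by 4.18 (SE 0.68, limma adjusted p = 0.00156), which held without each single library and was lost without replicate number 8 (4.06, adjusted p = 0.115) or 11 (3.52, adjusted p = 0.0666). Against ventral posterior skin alone it was 4.25 (SE 0.83, limma adjusted p = 0.0109). Leaving out ventral anterior 8 or 11, or ventral posterior 3, lost that call, with adjusted p up to 0.068.

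TH and DBH, enzymes of noradrenaline synthesis, were looked at after the values of SLC6A2 were seen. TH read 0, 22.99 and 9.809 in ventral anterior skin and at most 4.103 in the other ventral libraries. In dorsal saddle skin it read 16.24, 7.951 and 10.9, and dorsal anterior and dorsal posterior libraries held up to 16.08 and 18.81. DBH read 13.62, 3.678 and 0 in ventral anterior and at most 4.64 in saddle skin. The highest values of both enzymes over all 21 libraries were thus in ventral anterior skin, in different libraries. The summed level of 11 neuron genes in ventral anterior skin, 1540 to 2691, was not above that of the other ventral locations, 2416 to 8504.

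Ventral anterior skin had 7 called members against the other ventral locations, 4 higher (background 1.58%) and 3 lower (1.42%, for both 3.0%), and 17 with the block (6.31%). Besides SLC6A2 the higher ones were SLC5A7, SLC13A2 and SLC22A23. SLC5A7, the choline transporter of cholinergic neurons, read 41.84, 250.1 and 335.7 there and at most 34.22 in the other ventral libraries, at 5.0 (SE 1.14, limma adjusted p = 0.0213). Leaving out ventral anterior 8 or 11 lost that call, with 4.65 (adjusted p = 0.127) and 4.43 (adjusted p = 0.144). CHAT, the enzyme that makes acetylcholine, was at 0, 3.678 and 1.09 in the same libraries. It was scarce throughout, with a median of 0 over all libraries, and read 11.06, 2.016 and 10.15 in flank. Dorsally SLC5A7 was uneven, with 148.5 in dorsal saddle 3 against 10.6 and 3.633 in the other saddle libraries.

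SLC13A2, a dicarboxylate carrier of kidney and gut, read 15.57, 27.59 and 56.67 in ventral anterior skin and at most 15.06 in the other ventral libraries (2.70, SE 0.57, adjusted p = 0.0131). Its call was lost without ventral anterior 8 or 11. The lower members were SLC8A1 at -1.60 (SE 0.33), SLC2A5 at -1.70 (SE 0.40) and SLC35E3 at -0.53 (SE 0.14). SLC8A1 read 27.24, 68.97 and 34.88 there, and its call was lost without ventral anterior 3 or 11. The SLC2A5 call was lost without any 1 of the 3 ventral anterior libraries, and that of SLC35E3 on leaving out any of 17 libraries. SLC22A23 at 0.86 (SE 0.15, adjusted p = 0.00329) stayed called without each single library. Its call was lost without 1 of the 3 replicate numbers, with limma adjusted p up to 0.183.

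**Figure D4:**
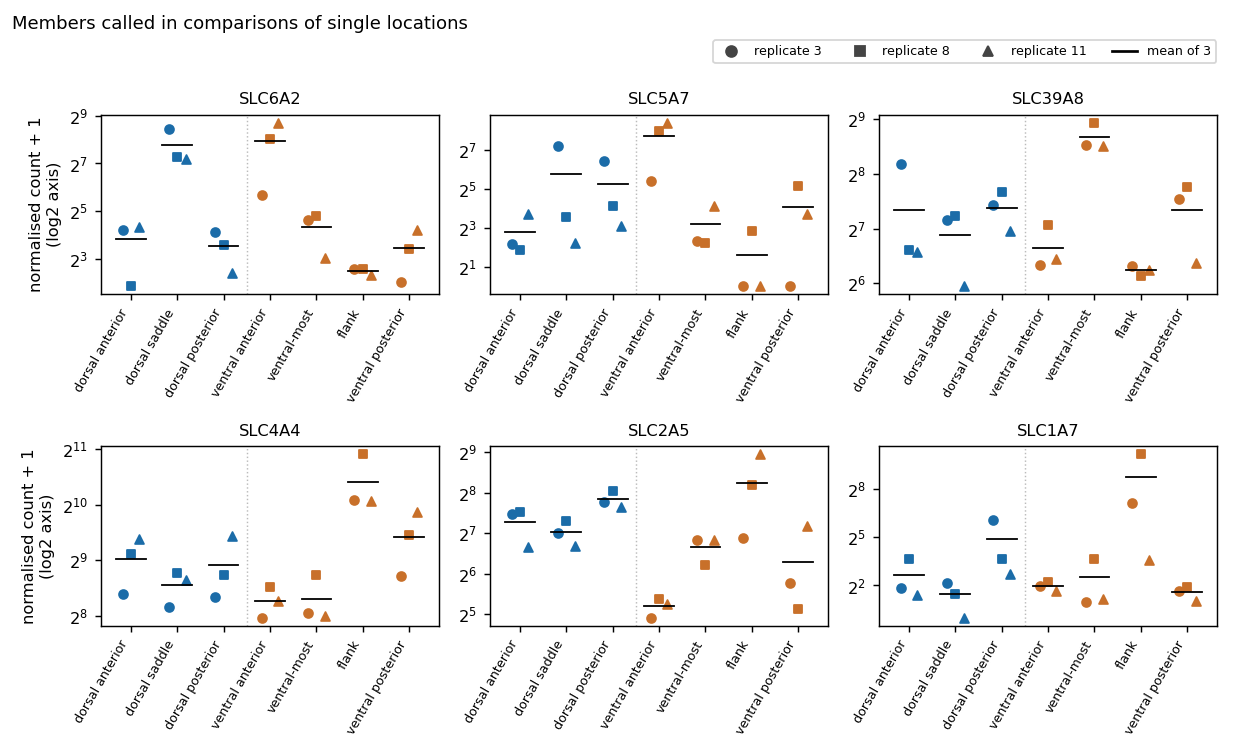
Normalised read counts plus 1 on a log2 axis for 6 members in every library, by location, with symbols and bars as in the plot of dorsal and ventral levels. SLC6A2 peaks in dorsal saddle and ventral anterior skin, SLC39A8 in ventral-most skin (364.3 to 488.4) and SLC4A4 in flank (1067 to 1905), while SLC1A7 spreads from 11.17 to 1145 among the 3 flank libraries.

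Flank skin had 10 called members, more than the other single locations, which had 1 to 7. Of the 171, 8 were higher and 2 lower than in the other ventral locations, against backgrounds of 1.61% and 1.44%, or 3.05% in both directions, and with the block 21 were called against 7.29%. SLC4A4, the sodium-bicarbonate cotransporter, lies on chromosome 4, from 1587792 to 1689028. A same-strand gene overlaps it by 98450 bases, at a mean of 3.86. SLC4A4 read 1082, 1905 and 1067 in flank and 251 to 929.3 in the other 9 ventral libraries, with a median of 366.9. Flank lay above all of them, at 1.72 (SE 0.29, limma adjusted p = 0.00306). The call held without each single library, and was lost without replicate number 8 (1.59, adjusted p = 0.186).

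SLC8A1, the sodium-calcium exchanger, read 228.6, 266.1 and 254.8 in flank and 27.24 to 144 in the other ventral libraries. The difference was 1.86 (SE 0.33, limma adjusted p = 0.00461), and it too held without each single library, but not without replicate number 3 (1.84, adjusted p = 0.0658) or 8 (1.80, adjusted p = 0.147). An opposite-strand gene with a mean of 277.2 overlaps SLC8A1 by 1681 bases, and it read 311, 282.2 and 199 in flank and 279.4, 261.4 and 291.6 in ventral-most skin. SLC16A7 read 70.07, 77.6 and 64.98 in flank and 15.48 to 40.32 elsewhere on the ventral side, at 1.53 (SE 0.30, limma adjusted p = 0.00951). Leaving out flank 8 lost that call (1.46, adjusted p = 0.0653). SLC8A1 and SLC16A7 were thus as high in flank as in many dorsal libraries, where their medians were 182 and 94.8.

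The fructose transporter SLC2A5 read 116.8, 289.3 and 489.4 in flank, against a median of 53.32 and a maximum of 144.6 in the other ventral libraries, at 2.06 (SE 0.40, limma adjusted p = 0.00832). That call was lost without flank 11 (1.59, adjusted p = 0.0591) or flank 8 (1.97, adjusted p = 0.0602). SLC1A7, a glutamate transporter of the retina, showed the largest fold change, 5.17 (SE 1.04, limma adjusted p = 0.0103), but its libraries read 140.1, 1145 and 11.17. The other 9 ventral libraries held at most 11.8, so that flank 11 lay within their range. Without flank 8 the value was 3.57 (adjusted p = 0.109) and without flank 3 it was 5.08 (adjusted p = 0.0572). A same-strand gene overlapping SLC1A7 by 33449 bases read 1141, 509 and 647.8 in the same 3 libraries.

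The other members higher in flank were SLC37A1 at 1.19 (SE 0.29), the nucleoside carrier SLC29A1 at 0.83 (SE 0.21) and the monoamine and nucleoside carrier SLC29A4 at 1.07 (SE 0.27). Their calls were lost on leaving out any of 4, 10 and 11 libraries. Lower were the glucose transporter SLC2A3, at 236, 335.6 and 450.8 in flank and 408.3 to 921.4 in the other ventral libraries (-1.08, SE 0.23), and the basic amino acid importer SLC7A2 (-1.43, SE 0.35). The SLC2A3 call was lost without flank 3 (-0.84, adjusted p = 0.112) or flank 8 (-1.09, adjusted p = 0.0655), and that of SLC7A2 without flank 3, flank 8 or ventral-most 8, with adjusted p up to 0.215. By values alone, 6 members were above all other ventral libraries in flank (background 1.82%) and 2 below (1.14%).

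Marker genes of several other cell types also differed in flank. Those of neurons were high in sum, but single genes went both ways. The summed level of 11 was 4894 to 8504 there and 1540 to 3319 in the other ventral libraries. Of the 8 that were tested, STMN2 was called higher and NEFM lower. With the block 4 were higher and NEFM was again lower (limma adjusted p = 0.0145). Of 12 melanocyte genes 0 were called in flank by limma, edgeR or DESeq2, although 6 had an unadjusted limma p under 0.05. With the block 4 were higher, and the median of the list was 1.43. The summed level of cartilage genes was 2124 to 3496 in flank and 4621 to 17760 in the other ventral libraries, without overlap, although of 8 tested 1 was called higher and 1 lower. Mesothelium and kidney genes summed to 6800 to 13280 in flank and 3041 to 7502 elsewhere on the ventral side, and 2 of 4 tested were higher. Of 5 glia genes 1, NTRK2, was lower at -3.31. With the block it stayed lower, while CDH19 at 3.74 and SOX10 at 2.99, which is also in the melanocyte list, were higher. Of 10 endothelium genes 1 was lower and of 13 dermal mesenchyme genes 1 was higher. The part of these cells in the flank differences of the carriers was not tested.

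Ventral-most skin gave 2 members against the other ventral locations (background 0.678%), and 6 with the block (2.42%). SLC39A8, an importer of zinc and manganese, read 370.3, 488.4 and 364.3 there. The other ventral libraries held 69.54 to 214.9, so the groups did not overlap, and the difference was 1.97 (SE 0.37, limma adjusted p = 0.0169). SLC29A4 was lower, at 58.88, 51.74 and 70.23 (-1.46, SE 0.27, limma adjusted p = 0.0176). Leaving out any 1 of the 3 ventral-most libraries lost both calls, with values of 1.83 to 2.04 for SLC39A8 and -1.57 to -1.35 for SLC29A4 and adjusted p up to 0.16.

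The remaining locations called 1 or 2 members each. Ventral posterior skin was lower in SLC37A1 (-1.43, SE 0.29, limma adjusted p = 0.0207, background 1.10%), which was lost without ventral posterior 3 or 11, with adjusted p up to 0.176. With the block 12 members were called there (3.41%). Dorsal posterior skin was higher in SLC29A4, at 253.9, 149.7 and 192.7 against 55.02 to 122.6 in the other dorsal libraries (1.33, SE 0.29, adjusted p = 0.0386, background 0.864%). With the block 6 were called there (3.39%). Dorsal anterior skin was higher in SLC18B1 (0.59, SE 0.14) and lower in the amino acid carrier SLC38A8 (-1.66, SE 0.41), with a background of 2.05%. With the block 6 were called there (4.36%). The calls of SLC29A4, SLC18B1 and SLC38A8 were lost on leaving out any of 9, 6 and 12 libraries, with adjusted p up to 0.243, 0.232 and 0.175.

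A part of the spread between libraries followed the replicate number rather than location. This is a description, since the labels do not say what the number marks. In the 7 libraries of number 11 the cystine importer SLC7A11 read 102.6 to 545.1, with a median of 204.1, and in the other 14 it read 0 to 43.29, with a median of 8.116. The basic amino acid carrier SLC7A3 read 2433 to 6755 with a median of 3676, against 317.8 to 525.1 with a median of 434.9. SLC7A5 read 1606 to 4946 against 525.9 to 1169, and the neutral amino acid carrier SLC1A4 251.8 to 852.3 against 109.5 to 223.8. None of these ranges overlapped.

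The zinc carrier SLC39A3 was also higher in every number 11 library, and the mitochondrial dicarboxylate carrier SLC25A10 was lower, at 233.4 to 407.3 against 460.2 to 1105. These are 5 members higher without overlap (background 1.43%) and 1 lower (1.23%). Counted by size, 8 of the 171 members were at least 1 log2 unit higher in number 11 and 6 at least 1 lower, near the 726 and 599 of all 14005 genes. SLC7A11 was higher by 4.84 and SLC7A3 by 3.15. The basic amino acid importer SLC7A1 overlapped, at 973.4 to 1448 in number 11 and 789.8 to 1695 in the rest.

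Genes of the amino acid response list, which cells induce when amino acids run short, were high in the same libraries. Whether amino acids ran short was not tested. Of 16 such genes 12 were at least 1 log2 unit higher in number 11, at a median of 1.67, while 726 of 14005 genes in all were. CHAC1, which degrades glutathione, read 621.2 to 1727 in number 11 and at most 45.24 in number 3 and 55.66 in number 8. The asparagine synthetase ASNS read 2627 to 5834 against at most 648.4 and 981.2. The transcription factor ATF4 read 11640 to 20190 against at most 6646 and 5444. Glycolysis genes, another list, also separated by number, in the other direction. Their summed level was 115900 to 147400 in number 11, 181000 to 243100 in number 3 and 173200 to 220000 in number 8. Every location has 1 library of each number, so this spread is shared by all location groups, and whether it arose in the embryos or after dissection was not tested.

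**Figure D5:**
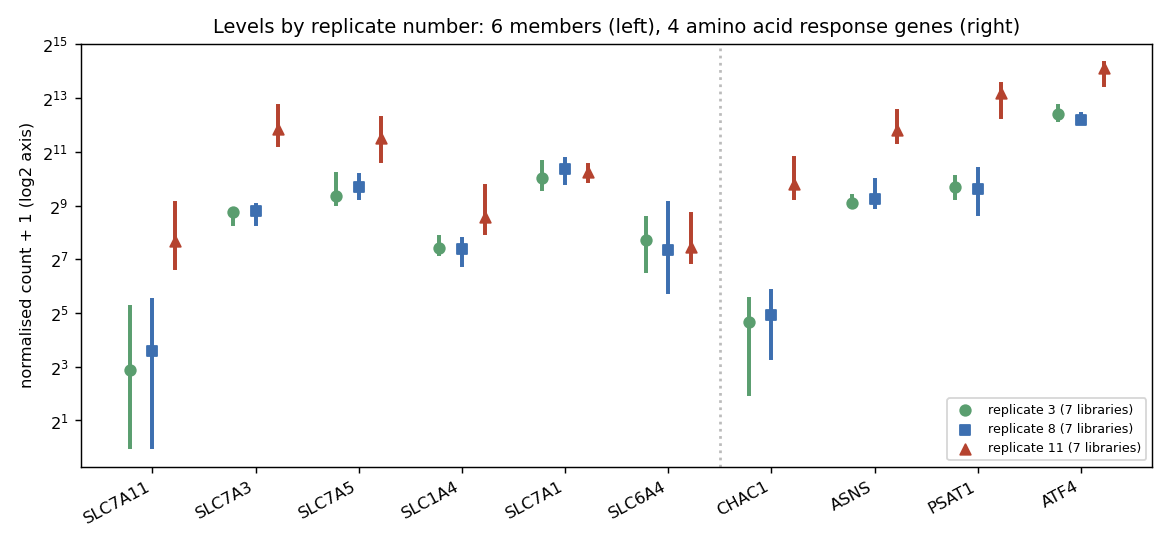
Range (line) and median (symbol) of normalised read counts plus 1 on a log2 axis over the 7 libraries of each replicate number, for 6 solute carrier genes on the left and 4 amino acid response genes on the right. SLC7A11, SLC7A3, SLC7A5 and SLC1A4 are higher in replicate number 11 without overlap, as are the 4 response genes, while SLC7A1 and SLC6A4 overlap.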

How the data were processed

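The values are a signal per gene that the authors deposited, in which each library's read counts were divided by a size factor of that library; the deposited table is named as normalised with DESeq2. STAR 2.4.0, FastQC, Picard and SAMtools are also named in the submitters' processing notes, without roles. Per the labels' protocols, RNA was amplified with SMART-Seq v4 and made into Nextera XT libraries, without molecular identifiers. No source used here gives the genome build, annotation release or read counter, and positions are those of the table. Dividing each column by its smallest step (0.784 to 1.37) recovered whole reads, with 100% of values whole within 0.01 in each library.

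Symbols came from a RefSeq table (bTaeGut7.mat, names only) or from the deposited name. SLC3A2, SLC1A5, SLC4A1, SLC25A37, SLC11A2, SLC40A1 and SLC39A14 are not analysed here. Members and lists were chosen with earlier results of these data known.

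The test was limma 3.58.1 (R 4.3.3) on log2(value + 1), with trend and robust options, all 7 locations in one fit and no block, over the 14005 genes that reached 10 in 3 or more libraries. Fold changes on this scale understate the change of low genes. SE is the standard error of the fit, and an adjusted p with no tool beside it is from limma. Named were called members by size of change with a mean log2 level of at least 5 and the same sign in every replicate number (up to 12 in each direction for dorsal against ventral, 8 for anterior against posterior, 4 elsewhere), the 10 largest F, up to 3 per role and list, and a fixed list of widely studied carriers. Other called members were named after their values were seen. The limma fit was tested on simulated data, in which libraries were drawn independently without an effect of the replicate number. That test therefore does not cover the pairing of same-numbered libraries described below. The comparison of replicate numbers was added after seeing the data and has no test.

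Same-numbered libraries deviated together. The correlation of their deviations from the location means was over 0.1 in all 21 pairs of each number (medians 0.38, 0.43 and 0.43 for numbers 3, 8 and 11), and was -0.32 to -0.05 between numbers. Because the 3 deviations at a location sum to 0, positive values within numbers require negative ones between them on average. The negative values are therefore no further sign of pairing. The fit with the number as a block is given where it changes a call or a count. Other alternatives were pseudocounts of 0.5 and 5, no filter, a mean of at least 50, upper quartile scaling, no trend, edgeR 4.0.16 and DESeq2 1.42.0 on recovered reads, and leaving out libraries. Over all genes, edgeR called 2370 between dorsal and ventral skin and limma 2409.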

Additional observations from a re-analysis of the deposited data

Results flagged for a closer look

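In 42 groups of 9 dorsal libraries, 1 for each member named for dorsal against ventral skin, 3 held a single library that stood apart by Dixon's ratio, and chance alone flags about 1 in 20 groups. SLC16A7 read 223.5 normalised read counts in dorsal saddle replicate 8 and 53.11 to 125.9 in the other dorsal libraries. SLC6A4 read 541.6 in dorsal posterior replicate 8, against 310.9 to 408.8 in the others. SLC25A48 read 633.1 in dorsal anterior replicate 11, against 181.7 to 399.6. The dorsal calls of SLC16A7 and SLC6A4 held without each single library, and that of SLC25A48 was lost without the library that stood apart (adjusted p = 0.0511 by limma).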

How the results depend on the processing

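The replicate block, which rests on the pairing of same-numbered libraries, ended no call of a named gene and added those of SLC12A2 and SLC16A3 between dorsal and ventral skin. Upper quartile scaling, edgeR and DESeq2 moved the median of all genes between dorsal and ventral skin by less than 0.1. Counts of called members are given for settings that moved them by more than 1.5 times. The replicate block gave 77 members for any difference, 62 for dorsal against ventral, 11 for each anterior-posterior contrast, 2 for their difference, 6 for ventral-most, 21 for flank, 6 for dorsal anterior, 6 for dorsal posterior, 17 for ventral anterior and 12 for ventral posterior. DESeq2 gave 62 for any difference, where it called 24.7% of all genes. It gave 7 and 6 for the dorsal and ventral anterior-posterior contrasts (background 4.27% and 3.56%) and 3 for their difference (2.71%). For single locations it gave 5 for ventral-most (2.26%), 17 for flank (5.53%) and 7 for dorsal posterior (2.71%). Ventral anterior gave 11 (5.36%) and ventral posterior 7 (2.88%). edgeR gave 1 for the ventral anterior-posterior contrast (background 1.52%) and 1 for dorsal anterior (1.66%). Without a filter the dorsal anterior-posterior contrast gave 1. A fit of the compared libraries alone, with fewer samples, gave 0 for both anterior-posterior contrasts, saddle, dorsal anterior, dorsal posterior and ventral posterior, 1 for ventral-most, 5 for flank and 4 for ventral anterior. Shares over all genes are not given for this fit or the one without a filter. Their counts are therefore not read as particular to the members.

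Leaving out a library or a replicate number gave 2 to 35 members for any difference, 8 to 40 for dorsal against ventral, 0 to 4 and 0 to 3 for the dorsal and ventral anterior-posterior contrasts, 0 to 2 for their difference, 0 to 1 for saddle, 0 to 3 for ventral-most, 0 to 13 for flank, 0 to 3 for dorsal anterior, 0 to 1 for dorsal posterior, 0 to 8 for ventral anterior and 0 to 2 for ventral posterior. Apart from dorsal against ventral skin, no count over all genes is given for these fits. The ranges are therefore not read as particular to the members. The lowest counts for dorsal against ventral, any difference, flank and ventral anterior came without replicate number 8. Without that number the calls over all genes between dorsal and ventral skin also fell, to 813 of 14005.

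Over single genes, 2612 values were recomputed: 2186 kept direction and side of the threshold, 370 lost the call, 22 gained one and 34 changed sign. All sign changes were of genes not called between dorsal and ventral skin. These were SLC2A1 (0.034 without flank), SLC2A3 (-0.0060 with upper quartile scaling, -0.27 without flank), SLC5A7 (-0.038 with a pseudocount of 5, -0.55 without flank), and, on leaving out libraries or numbers, SLC2A3 (-0.17 to 0.14), SLC7A5 (-0.19 to 0.28), SLC7A11 (-0.12 to 1.54), SLC17A6 (-0.63 to 0.28) and SLC5A7 (-1.21 to 1.14). Dorsal against ventral gave 36 members without flank, 40 with edgeR and 49 with DESeq2. Over all 14005 genes these settings called 2244, 2370 and 2937. The cause of these changes was not tested.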
